A study of Saccharomyces cerevisiae with 8 samples.

Results

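Domain VI and the 3’ end of 25S rRNA were described here, as nucleotides 2997 to 3396 of the rRNA. The stretch was defined by these fixed coordinates, with earlier results of these data known. It comprised 400 of the 3396 nucleotides of 25S rRNA, all of which were present in each of the 8 libraries. The stretch corresponds to positions 452185 down to 451786 of chromosome XII in the R64 genome, within the exon of RDN25-1 (451786 to 455181, reverse strand), the 25S rRNA gene of the first annotated rDNA repeat. The ricin target adenosine of the sarcin-ricin loop, nucleotide 3027, lies at position 452155.

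Affinity purified precursors of the large ribosomal subunit of the yeast Saccharomyces cerevisiae (S288c background) were analyzed by random primer extension, in which cDNAs primed at random sites end where the RNA template is cut or where the reverse transcriptase stops. Late precursors with 25S rRNA (25S-preLSUs) were purified via the TAP-tagged cytoplasmic biogenesis factor Lsg1 from 2 litre cultures. Earlier precursors with 27SB pre-rRNA (27SB-preLSUs) were purified via the TAP-tagged factor Noc3, which acts in the nucleolus and nucleus, from 6 litre cultures, and all strains were grown in YPD. For each precursor there was 1 strain each with micrococcal nuclease (MNase) and an HA tag fused to rpL5, rpL27 or rpL35, and 1 strain with the TAP tag but no MNase. The fusion strains carried the tagged r-protein on a plasmid in place of the deleted chromosomal gene copies. All 8 preparations, also those without MNase, received 8 mM calcium for 10 min at 16 °C, which activates MNase, so that cuts near the fused r-protein can be read as cDNA ends. With 1 library per condition there were no replicates, and the 4 libraries of a purification were different strains.

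Domain VI is the 3’-terminal domain of 25S rRNA. It carries the sarcin-ricin loop, at which translational GTPases bind and which the toxins ricin and α-sarcin attack, and it is bound by rpL3. In structures of early nucleolar precursors it is already folded next to domains I and II, before the central domains of the rRNA. rpL5 is a partner of 5S rRNA in the central protuberance, and rpL35 sits next to the exit of the peptide tunnel.

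The measure was the termination to coverage ratio (TCR), that is, among the unique cDNA fragments reaching a nucleotide, the fraction whose end lies on it, as the authors deposited it. It is given here in percent for a window of 3 nucleotides, as the probability of termination at the centre nucleotide or at either neighbour. The authors’ noise estimate, 1 value per nucleotide and purification, was taken at the centre. Depth per nucleotide was unknown because the values came without coverage, so no counting error could be given for any value. None of the 400 nucleotides is annotated in the deposited table as a modified base that blocks reverse transcription.

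No cleavage site was found in this stretch in any of the 6 MNase libraries. A call required a window TCR of 15% or more that exceeded both the noise estimate and the MNase-free library of that purification more than 5 times. In 25S-preLSUs 0 of the 326 windows up to nucleotide 3322 were called with each fusion. Only 250 of these windows lie up to nucleotide 3246, after which nearly all TCRs were 0. No call was possible after it, nor in the remainder of the 400 nucleotides, where all TCRs were 0. Over the 3373 windows tested in 25S rRNA the share called was 0.326% for MNase-rpL5, 0.771% for MNase-rpL27 and 0.563% for MNase-rpL35. In 27SB-preLSUs 0 windows were called as well, and the share over 25S rRNA was 0.0889% for MNase-rpL5, 0.0593% for MNase-rpL27 and 0.237% for MNase-rpL35. With such low shares over all of 25S rRNA, a count of 0 in a stretch of this length is close to the background. Windows above the noise, of 15% or more, or well above the MNase-free library all occurred, but no window met the 3 conditions together. At the highest MNase-free windows no call was possible, because 5 times their value exceeds the largest possible TCR. These held 28.4% at 3213 and 24.4% at 3166 in 25S-preLSUs and 22.8% at 3204 in 27SB-preLSUs.

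**Figure D1:**
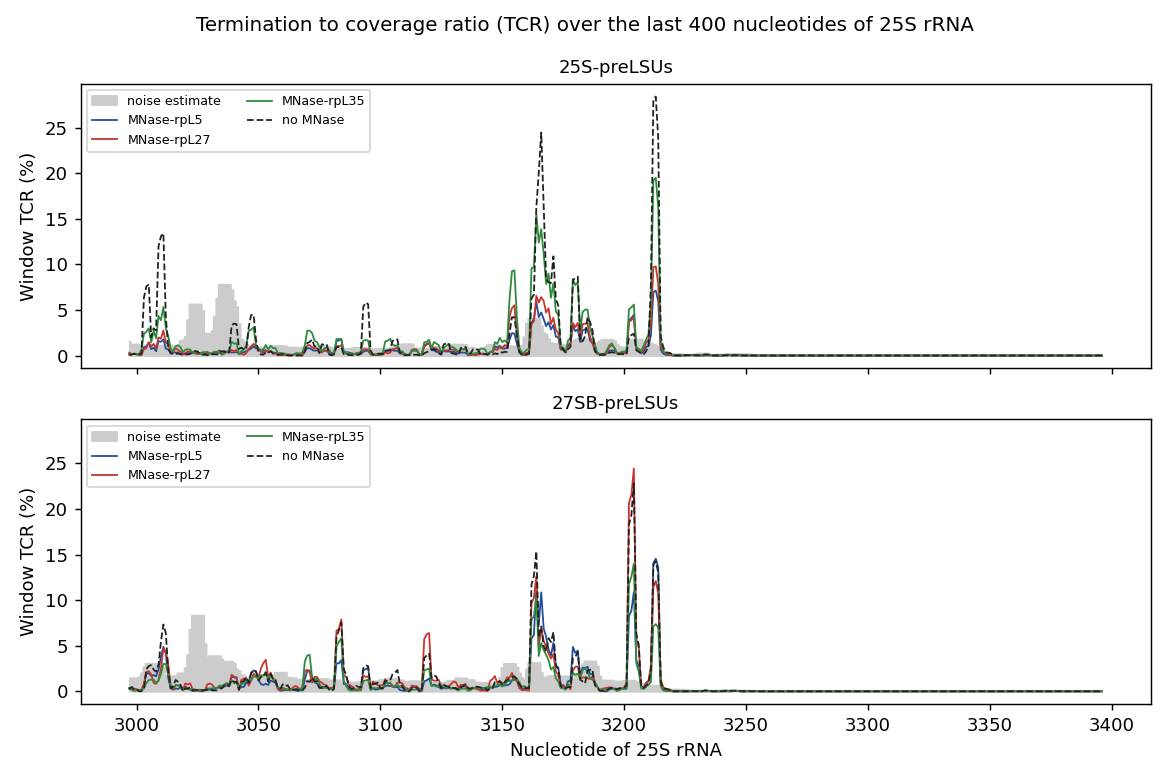
Window TCR in percent (y axis) along the last 400 nucleotides of 25S rRNA (x axis, nucleotide number) for 25S-preLSUs (top) and 27SB-preLSUs (bottom), with 1 line per library (dashed, no MNase) and the noise estimate in grey. The highest windows stood between nucleotides 3147 and 3221 in all 8 libraries, and the lines lay at or near 0 from nucleotide 3222 to the end.

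Termination was concentrated in the 75 nucleotides from 3147 to 3221, upstream of the silent 3’ end. Over these nucleotides the combined probability of termination reached 35.3% for MNase-rpL5, 42.9% for MNase-rpL27, 65.2% for MNase-rpL35 and 66.7% for the MNase-free strain in 25S-preLSUs. The values in 27SB-preLSUs were 50.4% for MNase-rpL5, 55.3% for MNase-rpL27, 42.2% for MNase-rpL35 and 58.3% for the MNase-free strain. Over the 150 nucleotides before it, from 2997 to 3146, it was lower in every library, at 19.0% to 42.9% in 25S-preLSUs and 31.0% to 43.7% in 27SB-preLSUs. The libraries without MNase had the highest value from 3147 to 3221 in both purifications.

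Taking the 5 highest separate windows of each library gave 12 stops. The stop at nucleotide 3213 (position 451969) was the only one among the 5 highest in all 8 libraries. Its window TCR in 25S-preLSUs was 7.12% for MNase-rpL5, 9.78% for MNase-rpL27, 19.5% for MNase-rpL35 and 28.4% for the MNase-free strain, over a noise estimate of 1.15%. 27SB-preLSUs had 14.5% for MNase-rpL5, 12.1% for MNase-rpL27, 7.36% for MNase-rpL35 and 14.3% for the MNase-free strain, over a noise estimate of 0.683%. The precursors overlapped at this stop, and no fusion exceeded the library without MNase in 25S-preLSUs. Most of the termination fell on nucleotide 3213 itself, whose own TCR was 5.36% to 22.2% in 25S-preLSUs and 6.45% to 12.5% in 27SB-preLSUs.

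**Figure D2:**
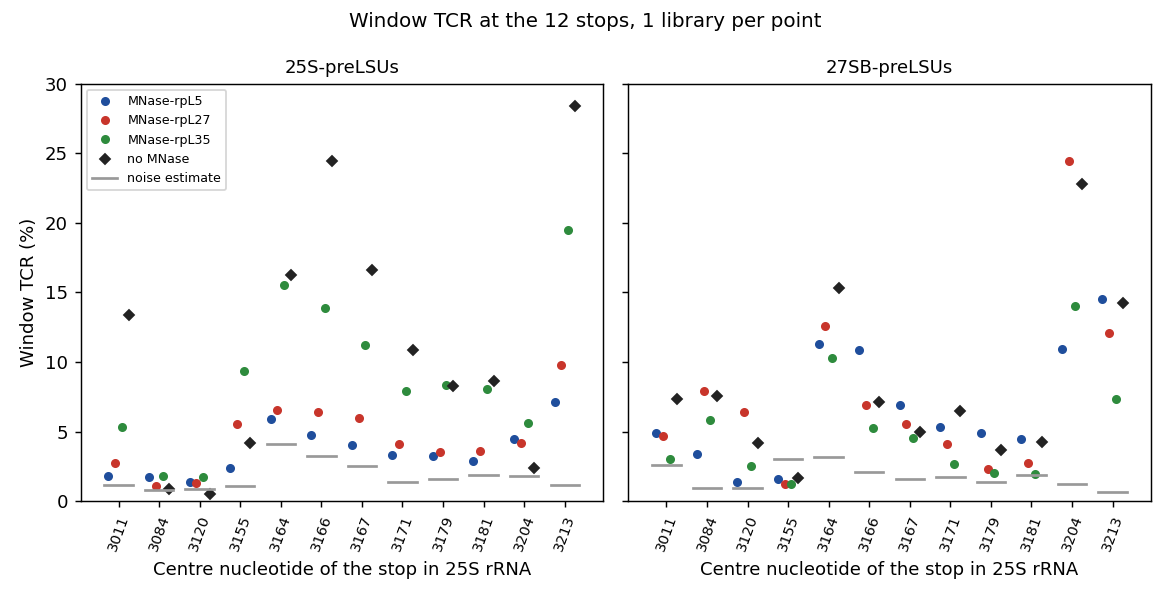
Window TCR in percent (y axis) at the 12 stops (x axis, centre nucleotide) in 25S-preLSUs (left) and 27SB-preLSUs (right), with 1 point per library (diamond, no MNase) and a grey bar for the noise estimate. In 25S-preLSUs the diamond was above all 3 fusions at 7 of the 12 stops and below all 3 at nucleotides 3084, 3120 and 3204.

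A cluster of stops lay upstream of it, from nucleotide 3164 to 3181. At 3164 (position 452018) the window TCR was 5.89% for MNase-rpL5, 6.55% for MNase-rpL27, 15.5% for MNase-rpL35 and 16.3% for the MNase-free strain in 25S-preLSUs. In 27SB-preLSUs it was 11.3% for MNase-rpL5, 12.6% for MNase-rpL27, 10.3% for MNase-rpL35 and 15.4% for the MNase-free strain. The noise estimate was high here, at 4.09% in 25S-preLSUs and 3.16% in 27SB-preLSUs, so that 2 of the values in 25S-preLSUs lay within 2 times of it. The window at 3166 (position 452016) overlaps with this one and held the second highest value among the 12 stops, 24.4% in 25S-preLSUs without MNase, beside 4.72% for MNase-rpL5, 6.41% for MNase-rpL27 and 13.9% for MNase-rpL35. In 27SB-preLSUs the order at 3166 was another one, with 10.8% for MNase-rpL5 as the highest, then 7.12% for the MNase-free strain, 6.89% for MNase-rpL27 and 5.29% for MNase-rpL35. The windows at 3167, 3171, 3179 and 3181 ranged from 2.87% to 16.6% in 25S-preLSUs and from 1.94% to 6.89% in 27SB-preLSUs, and the precursors overlapped at each of them.

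Further upstream, the stop at nucleotide 3011 (position 452171) upstream of the ricin target was highest without MNase in both precursors. It reached 1.77% for MNase-rpL5, 2.75% for MNase-rpL27, 5.32% for MNase-rpL35 and 13.4% for the MNase-free strain in 25S-preLSUs, over a noise estimate of 1.14%. In 27SB-preLSUs it reached 4.87% for MNase-rpL5, 4.71% for MNase-rpL27, 3.0% for MNase-rpL35 and 7.33% for the MNase-free strain, over a noise estimate of 2.58%. The strongest single nucleotide was not the same in the libraries without MNase: it was 3010, with 9.70%, in 25S-preLSUs, and 3011, with 4.28%, in 27SB-preLSUs.

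At 3 of the 12 stops the libraries of the precursors did not overlap, 1 higher in 25S-preLSUs and 2 higher in 27SB-preLSUs. Over 25S rRNA, 1257 windows had at least 1 library above both noise estimates. All 4 libraries of 25S-preLSUs were higher in 7.88% of these and all 4 of 27SB-preLSUs in 17.0%. The count at the stops is therefore close to the background. At nucleotide 3204 (position 451978) 25S-preLSUs had 4.47% for MNase-rpL5, 4.21% for MNase-rpL27, 5.59% for MNase-rpL35 and 2.39% for the MNase-free strain. 27SB-preLSUs had 10.9% for MNase-rpL5, 24.4% for MNase-rpL27, 14.0% for MNase-rpL35 and 22.8% for the MNase-free strain, so that every 27SB-preLSU library lay above every 25S-preLSU library. The mean over 4 libraries was 4.17% ± 1.33 for 25S-preLSUs and 18.0% ± 6.60 for 27SB-preLSUs (SD over 4 strains), and the ratio of 25S-preLSUs to 27SB-preLSUs was 0.231 for the means. The termination was carried by nucleotide 3203, whose own TCR was 1.96% to 4.85% in 25S-preLSUs and 8.02% to 20.1% in 27SB-preLSUs. The size of this difference was not the same in each strain: the ratio was 0.410 for MNase-rpL5, 0.172 for MNase-rpL27, 0.398 for MNase-rpL35 and 0.105 for the MNase-free strain. The difference between the precursors was thus present, and at its largest, in the libraries without MNase.

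The stop at nucleotide 3084 (position 452098) had the same direction. In 25S-preLSUs it was 1.77% for MNase-rpL5, 1.12% for MNase-rpL27, 1.81% for MNase-rpL35 and 0.899% for the MNase-free strain, over a noise estimate of 0.785%. The values in 27SB-preLSUs were 3.42% for MNase-rpL5, 7.88% for MNase-rpL27, 5.81% for MNase-rpL35 and 7.54% for the MNase-free strain, over a noise estimate of 0.938%. The mean was 1.40% ± 0.459 for 25S-preLSUs and 6.16% ± 2.04 for 27SB-preLSUs (SD over 4 strains). A smaller stop at nucleotide 3120 (position 452062) overlapped between the precursors only through MNase-rpL5 of 27SB-preLSUs. It had 1.38% for MNase-rpL5, 1.34% for MNase-rpL27, 1.73% for MNase-rpL35 and 0.492% for the MNase-free strain in 25S-preLSUs, and 1.41% for MNase-rpL5, 6.39% for MNase-rpL27, 2.49% for MNase-rpL35 and 4.15% for the MNase-free strain in 27SB-preLSUs.

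Nucleotide 3155 (position 452027) was the stop that was higher in 25S-preLSUs. It had 2.39% for MNase-rpL5, 5.51% for MNase-rpL27, 9.35% for MNase-rpL35 and 4.19% for the MNase-free strain in 25S-preLSUs, all above the noise estimate of 1.06%. In 27SB-preLSUs all 4 libraries lay between 1.24% and 1.64% and below their noise estimate of 3.06%, so that no termination was detectable over noise. The mean was 5.36% ± 2.95 for 25S-preLSUs and 1.42% ± 0.209 for 27SB-preLSUs (SD over 4 strains).

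**Figure D3:**
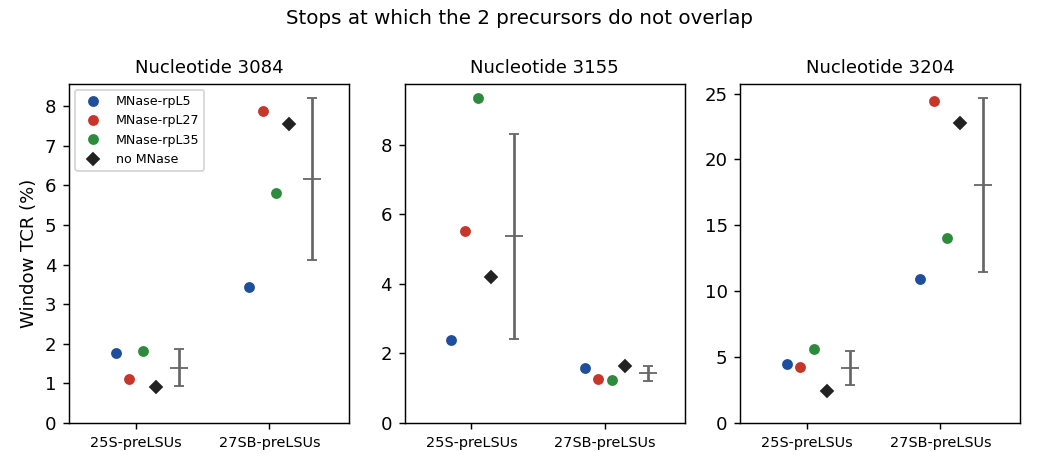
Window TCR in percent (y axes start at 0 and differ in scale) at the 3 stops whose libraries did not overlap between 25S-preLSUs (left in each panel) and 27SB-preLSUs (right), with 1 point per library and the mean with its SD over the 4 strains in grey. 25S-preLSUs were lower at nucleotides 3084 and 3204, with means of 1.40% and 4.17%, and higher at nucleotide 3155, with a mean of 5.36%.

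Counted over windows, 92 windows of the stretch had at least 1 library above both noise estimates. All 4 libraries of 25S-preLSUs were higher in 4 of them, or 4.35%, where 7.88% of the 1257 windows of 25S rRNA behaved so. These lay at 3153 to 3155 and at 3185. All 4 libraries of 27SB-preLSUs were higher in 13 windows, or 14.1%, against a background of 17.0%, and these were centred on 3051, 3052, 3055, 3082 to 3086 and 3202 to 3206. Both shares lay below those of 25S rRNA as a whole, and neighbouring windows share nucleotides, so that these counts rest on few separate stops. The median window TCR up to nucleotide 3322 was 0.231% ± 0.0815 for 25S-preLSUs and 0.312% ± 0.0563 for 27SB-preLSUs (SD over 4 strains). It was higher in 25S-preLSUs in 1 of 4 pairs of the same fusion, and an exact permutation test over the signs of the pairs (two-sided, smallest possible p 0.125) gave an adjusted p of 0.75 with n = 4. The share of windows above noise averaged 18.9% for 25S-preLSUs and 15.95% for 27SB-preLSUs, higher in 25S-preLSUs in 2 of 4 pairs (exact permutation, adjusted p 0.75, n = 4), and this difference of 2.99 percentage points turned to -0.613 without the MNase-rpL35 libraries.

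In 25S-preLSUs the 3 fusions stood in 1 order at most, but not all, of the stops. The window TCR was lowest for MNase-rpL5, higher for MNase-rpL27 and highest for MNase-rpL35 among the fusions at 9 of the 12 stops, and the exceptions were 3084, 3120 and 3204. The MNase-free strain stood above all of them in this order at 7 stops, and at the other 5 (3084, 3120, 3155, 3179 and 3204) it did not. Over the 66 windows in which the mean of the 4 libraries exceeded the noise, the fusions had this order in 52, or 78.8%, beside 30.6% of 607 such windows in the rest of 25S rRNA. The full order with the MNase-free strain on top was found in 37 of the 66, or 56.1%, beside 20.3% in the rest. The highest library was the MNase-free strain in 39 of the 66 windows and MNase-rpL35 in 27, and the lowest was MNase-rpL5 in 49 and the MNase-free strain in 13. In 27SB-preLSUs the fusions had this order in 2 of 52 windows, beside 8.19% of 562 in the rest, and MNase-rpL35 was the lowest library in 32. These shares are a description, chosen after the values had been seen and given with no test, since overlapping windows of 1 library are not independent.

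The share of windows in which a fusion exceeded the MNase-free library was counted over the windows above noise for that fusion. In 25S-preLSUs this was 13 of 42 windows for MNase-rpL5, 19 of 49 for MNase-rpL27 and 48 of 88 for MNase-rpL35, or 31.0%, 38.8% and 54.5%, beside 54.2%, 52.8% and 56.9% in the rest of 25S rRNA. In 27SB-preLSUs it was 22 of 46 for MNase-rpL5, 31 of 62 for MNase-rpL27 and 5 of 43 for MNase-rpL35, or 47.8%, 50% and 11.6%, beside 56.5%, 58.6% and 43.1% in the rest. A window above noise in the fusion was thus also found higher without MNase in many cases. With windows chosen by the fusion, the share was lower in domain VI than in the rest for each of the 6 libraries, by little for MNase-rpL35 in 25S-preLSUs. The direction depended on this choice. With windows above noise in the MNase-free library, the share in 25S-preLSUs was higher for MNase-rpL27 (14.7% against 9.97%) and MNase-rpL35 (27.9% against 17.7%). In 27SB-preLSUs it was then higher for MNase-rpL5 (31.6% against 26.0%). It stayed lower for MNase-rpL5 in 25S-preLSUs and for MNase-rpL27 and MNase-rpL35 in 27SB-preLSUs.

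Some low windows were higher with a fusion than without it. In 25S-preLSUs, windows above noise and over 5 times the MNase-free library numbered 0 for MNase-rpL5, 0 for MNase-rpL27 and 5 for MNase-rpL35, where 2.67%, 3.32% and 4.00% of the windows of 25S rRNA passed for these fusions. The 5 windows, at 3017, 3118, 3124, 3147 and 3148, had TCRs of only 1.13% to 1.46%. In 27SB-preLSUs they numbered 0 for MNase-rpL5, 1 for MNase-rpL27 and 1 for MNase-rpL35, where 0.741%, 0.800% and 1.45% of the windows of 25S rRNA passed. Both were the window at 3069 (position 452113), which held 1.32% for MNase-rpL5, 2.18% for MNase-rpL27 and 3.25% for MNase-rpL35 against 0.377% for the MNase-free strain, over a noise estimate of 1.27%.

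Windows that exceeded the noise and 2 times the MNase-free library with all 3 fusions were found at 3118 to 3120 in 25S-preLSUs, 3 of 326 windows up to nucleotide 3322 or 0.920%, where 2.43% of the windows of 25S rRNA passed. In 27SB-preLSUs they were found at 3069 and 3071, 2 of 326 or 0.613%, where 0.623% passed. The places found in the 2 precursors were not shared: at 3118 to 3120 the MNase-free library of 27SB-preLSUs lay above MNase-rpL5 and MNase-rpL35, and at 3069 no fusion of 25S-preLSUs but MNase-rpL35 exceeded the noise. The windows at 3069 and 3071 were singled out after their values had been seen.

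The sarcin-ricin loop showed no termination above noise in any library. In the 11 nucleotides from 3022 to 3032, 0 windows exceeded the noise estimate. The probability of termination over all 11 was 0.768% for MNase-rpL5, 0.950% for MNase-rpL27, 1.04% for MNase-rpL35 and 0.742% for the MNase-free strain in 25S-preLSUs. 27SB-preLSUs had 0.471% for MNase-rpL5, 1.06% for MNase-rpL27, 0.661% for MNase-rpL35 and 0.410% for the MNase-free strain. These sums were below the noise estimate of every single nucleotide of the loop, and the precursors overlapped.

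At the ricin target adenosine itself, the TCR of nucleotide 3027 was 0.0642% for MNase-rpL5, 0.257% for MNase-rpL27, 0.140% for MNase-rpL35 and 0.0496% for the MNase-free strain in 25S-preLSUs. In 27SB-preLSUs it was 0.0858% for MNase-rpL5 and 0.0415% for MNase-rpL35, and it was listed at 0 for MNase-rpL27 and without MNase. The highest single value of the loop, 0.638% at nucleotide 3030 for MNase-rpL27 in 27SB-preLSUs, compared with a noise estimate of 3.91%. Noise estimates were high in the loop and just after it. They had a median of 4.96% in 25S-preLSUs and 6.79% in 27SB-preLSUs over the loop, beside 1.03% and 1.27% over all nucleotides of the stretch with a noise estimate above 0. The highest estimate was 7.82% at nucleotides 3034 to 3038 in 25S-preLSUs and 8.34% at 3023 to 3027 in 27SB-preLSUs, and values over 5% occurred at 14 nucleotides between 3022 and 3041 in 25S-preLSUs and at 7 between 3022 and 3028 in 27SB-preLSUs. Over the loop the estimate ran from 2.36% to 5.65% in 25S-preLSUs and from 3.75% to 8.34% in 27SB-preLSUs. A cleavage below these values would therefore not have been detectable over noise. A call in the loop would have required more than 5 times the estimate.

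Toward the 3’ end the signal ended well before the rRNA did. The last nucleotide with a TCR above 0 was 3246 with each of the 3 fusions and 3272 for the MNase-free strain in 25S-preLSUs. In 27SB-preLSUs it was 3255 for MNase-rpL5, 3247 for MNase-rpL27, 3246 for MNase-rpL35 and 3246 for the MNase-free strain. The 8 libraries thus stopped within 26 nucleotides of each other, between positions 451936 and 451910 of chromosome XII, and left 124 to 150 nucleotides of 25S rRNA listed at 0. The authors kept inserts of at least 75 nucleotides, which leaves ends possible up to nucleotide 3322, so that 50 to 76 nucleotides at 0 lay before this limit. An insert spans at least 75 nucleotides, so an end at nucleotide 3246 or later implies some coverage of nearly all nucleotides before 3322. How deep this coverage was could not be determined from the deposited values.

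The drop was abrupt, and nucleotide 3213 or 3214, the stop described above, was the last one with a TCR of at least 1% in every library. In the bin from 3197 to 3221 the probability of termination was 13.1% for MNase-rpL5, 16.2% for MNase-rpL27, 27.2% for MNase-rpL35 and 32.1% for the MNase-free strain in 25S-preLSUs, and 25.9%, 35.7%, 21.7% and 35.7% for the same strains in 27SB-preLSUs. In the next bin, from 3222 to 3246, it was 0.102% to 0.326% in 25S-preLSUs and 0.0353% to 0.205% in 27SB-preLSUs. After nucleotide 3221, 4 to 13 nucleotides per library in 25S-preLSUs and 2 to 8 in 27SB-preLSUs were above 0, and the highest single value was 0.0840% for 25S-preLSUs and 0.102% for 27SB-preLSUs.

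The noise estimate rose moderately before the last stops and fell with the signal after them. Its median per bin of 25 nucleotides in 25S-preLSUs was 0.849% from 3097 to 3121, 0.984% from 3122 to 3146, 1.34% from 3147 to 3171 and 1.64% from 3172 to 3196. The medians in 27SB-preLSUs were 1.16%, 1.04%, 2.47% and 1.69% in these bins. Both rises stayed below the medians of 5.65% for 25S-preLSUs and 3.75% for 27SB-preLSUs in the bin from 3022 to 3046. Toward the end the median was then 1.15% from 3197 to 3221, 0.176% from 3222 to 3246 and 0.0435% from 3247 to 3271 in 25S-preLSUs. In 27SB-preLSUs it was 0.686%, 0.142% and 0.0403% in the same bins. The last nucleotide with an estimate above 0 was 3276 for 25S-preLSUs and 3268 for 27SB-preLSUs, with 120 and 128 nucleotides at 0 after it. A noise estimate of 0 in these nucleotides stood beside TCRs of 0 in all 4 libraries of the purification and gives no measure of precision there.

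**Figure D4:**
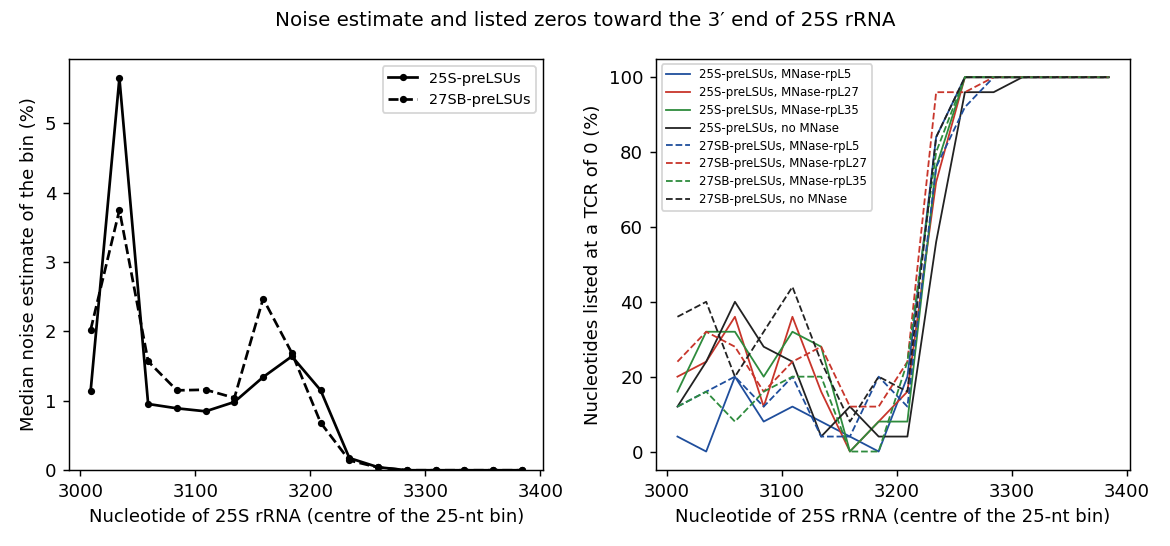
Median noise estimate in percent (left) and share of nucleotides listed at a TCR of 0 in percent (right) per bin of 25 nucleotides, against the nucleotide number at the centre of the bin, for 25S-preLSUs (solid) and 27SB-preLSUs (dashed). The noise estimate was highest in the bin that holds the sarcin-ricin loop, had a smaller second rise before nucleotide 3197 and fell to 0 after nucleotide 3276, while the share at 0 reached 100% in every library.

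Set against the other 2996 nucleotides of 25S rRNA, the stretch up to nucleotide 3322 had more nucleotides listed at 0. The share was 41.1% ± 4.30 in the stretch and 28.3% ± 6.54 in the rest (SD, n = 8 libraries), higher in 8 of 8 libraries, with a mean difference of 12.7 percentage points (exact two-sided permutation over the signs of the 8 pairs, p 0.0078, the smallest possible, adjusted p 0.0234 over 3 measures). With 6 libraries, after leaving out MNase-rpL5, MNase-rpL27 or the MNase-free strains in both purifications, the difference was 12.5 to 12.9 percentage points, higher in 6 of 6, and the exact permutation gave an adjusted p of 0.0938. The direction depended on the end chosen. With the stretch ended at nucleotide 3246, an end set from the values themselves, which takes zeros out of the stretch and not out of the rest, the share was 23.4% in the stretch against 28.3% in the rest and the difference was -4.93 points (exact permutation, adjusted p 0.0234, higher in 1 of 8). The median window TCR was 0.272% ± 0.0780 in the stretch and 0.299% ± 0.0656 in the rest, higher in 2 of 8 libraries (exact permutation, adjusted p 0.117), and the share of windows above noise was 17.4% ± 4.80 and 19.6% ± 3.28, higher in 1 of 8 (exact permutation, adjusted p 0.117). The share above noise was lower in 6 of 6 without MNase-rpL35 (difference -3.14 points, exact permutation, adjusted p 0.0469). It was higher in 1 of 6 when another strain was left out in both purifications. The exact permutation then gave an adjusted p of 0.375 without MNase-rpL5, 0.1875 without MNase-rpL27 and 0.375 without the MNase-free strains. In all these comparisons the rest held the 5’ end, the m1A and m3U residues and the called sites. Without them the median of the rest was 0.285% and its share above noise 18.2%. Both adjusted p-values were then 0.539 (exact permutation, n = 8), while the share at 0 still differed by 12.3 points. The median and the share above noise also turned round with the end at 3246, to 0.454% in the stretch against 0.299% in the rest (adjusted p 0.0234, higher in 8 of 8, exact permutation) and to 22.8% against 19.6% (adjusted p 0.0391, higher in 7 of 8, exact permutation). Since this end was set from the values, neither the higher median nor the higher share above noise is evidence that domain VI stands above the rest. The p-values obtained with this end are no test of it. The mean window TCR went the other way: up to nucleotide 3322 it was 1.05% in the stretch against 1.72% in the rest, a difference of -0.671 points, higher in 0 of 8 libraries (exact permutation, adjusted p 0.0117). Up to 3246 the mean was also below the rest in 8 of 8 libraries, at 0.765% to 1.87% in the stretch and 1.55% to 1.95% in the rest. The rest held the 5’ end, the m1A and m3U residues and the called sites, where TCRs are high and which the stretch lacks. No mean was computed without them, so the lower mean is no evidence of less termination in domain VI.

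The 8 profiles resembled each other over nucleotides 2997 to 3246. Spearman's rho across the 250 windows, which overlap and are no replicates, was 0.825 to 0.937 between the 12 pairs of libraries of the same precursor. Between precursors it was 0.792 to 0.904 for the 4 pairs of the same fusion and 0.742 to 0.895 for the other 12 pairs. The ranges overlapped.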

How the data were processed

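The data were TCR fractions of 8 libraries, 1 per strain. Per the labels and the methods, the authors mapped reads with Bowtie2 (version not given in the sources used here, genomes R64 and sacCer3), kept inserts of 75 to 750 nucleotides at a mapping quality of at least 40, sampled the same number of reads per dataset, and corrected for amplification by barcodes. The deposited table gives, as fractions from 0 to 1 at each template nucleotide, the TCR of each library and a noise estimate per purification, which the authors took from 100 simulated datasets per library as the highest TCR within 5 nucleotides. No coverage was given, so precision per nucleotide is unknown.

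Fractions were multiplied to percent, and a window TCR was the probability of termination at a nucleotide or its neighbours, from the product of their read-through probabilities (1 minus TCR each). Windows within 2 nucleotides of the 5’ end and of the m1A and m3U residues of 25S rRNA were left out of calls. Comparisons used nucleotides up to 3322, as inserts of the minimum size allow none in the last 74. Libraries were compared by exact permutation over the signs of pairs, adjusted after Benjamini-Hochberg over 3 and 2 measures. The p-values describe only how alike the paired differences were across these libraries, which were different conditions and no replicates. Positions named were the 5 highest windows per library with centres more than 2 nucleotides apart, the sarcin-ricin loop (5 nucleotides on either side of the ricin target), called windows and the last nucleotide above 0. Alternatives varied the window, thresholds, stretch, summary, bins and libraries. The region, lists and rules were chosen with earlier results of these data known. The calling was tested on simulated sites placed only where the MNase-free window and the noise estimate were low. The test therefore does not cover the strong stops or the high noise of this stretch. Chromosome positions were computed from the RefSeq annotation of RDN25-1. No genome sequence was used here, so bases are not shown. The software was numpy 2.4.6, pandas 2.3.3 and matplotlib 3.10.9 under Python 3.11.15.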

Additional observations from a re-analysis of the deposited data

How the results depend on the processing

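The count of 0 called windows held under all 10 alternatives listed for it (other windows, minimum TCRs, folds and stretches). Of these, the higher fold of 10 times and the shorter and longer stretches could not have added a call. With lower settings chosen after seeing the data, 7 windows passed at 2 times noise and no MNase and at least 5%, all with MNase-rpL35 in 25S-preLSUs (3153 to 3155, 3184 and 3202 to 3204), and 3 passed at 1 times and at least 15%, all with MNase-rpL27 in 27SB-preLSUs (3202 to 3204).

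Against the rest of 25S rRNA the direction changed with the nucleotide at which the stretch was ended. The difference in median window TCR was -0.0274 up to nucleotide 3322, -0.178 with all 400 nucleotides, 0.0247 without the last 100 and 0.155 up to 3246. The mean in place of the median gave -0.671, with the 5’ end, the m1A and m3U residues and the called sites kept in the rest. The difference in the share above noise was -2.20 points, -5.43 with all 400 nucleotides, 3.10 up to 3246 and -1.38 for the stop nucleotide alone. The share at 0 moved to -4.93 points up to 3246. Taking the 5’ end, the m1A and m3U residues and the called sites out of the rest gave smaller differences up to 3322. These were -0.0137 for the median, -0.797 points for the share above noise and 12.3 points for the share at 0. Leaving out 1 fusion, or the libraries without MNase, in both purifications gave -0.0384 to -0.0123 for the median, -3.14 to -1.63 points for the share above noise and 12.5 to 13.0 points for the share at 0, whose adjusted p then rose to 0.0938 at most because 6 libraries remained. Between precursors the same gave -0.129 to -0.0439 for the median and -0.613 to 5.32 points for the share above noise. In bins of 50 nucleotides the last bin with a median noise estimate above 0 ended at 3296 in 25S-preLSUs and 3246 in 27SB-preLSUs, in place of 3271. The labels carry no replicate numbers, and the pairs tested were the same fusion in both precursors or the stretch and the rest of 1 library. Unknown depth and 1 library per strain limit every value, and a TCR of 0 cannot be told from coverage too low to show an end.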
